A study of Apis mellifera with 18 samples.

Results

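The genes described here are those of the honey bee (Apis mellifera) that the deposited annotation ties to making, lengthening, desaturating and reducing fatty acids. The rule uses annotation and no measured value, but it was set with earlier results of these data known. A gene was taken if its Pfam entry named the GNS1/SUR4 family (elongases), a fatty acid desaturase or the Male sterility protein family (acyl-CoA reductases), or if its KEGG entry named fatty acid synthase or acetyl-CoA carboxylase, unless its KEGG pathway was Carbon metabolism. This gave 40 of the 17545 genes in the table, and the Carbon metabolism exclusion removed 0. They were 16 elongases, 7 desaturases, 11 acyl-CoA reductases, 4 genes with a fatty acid synthase hit and 2 with an acetyl-CoA carboxylase hit.

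RNA was sequenced from 18 libraries of Italian honey bees, 9 from mouthparts and 9 from what the labels name tentacles. There were 3 groups of 3 libraries per tissue, which were a control group without pollen, a collection group with pear pollen and a collection group with Olea europaea (olive) pollen, called control, pear and olea below. The labels give no age, sex, caste, colony or number of bees per library, so pollen cannot be told apart from task, age or colony. They do not say that the 3 libraries of a group came from separate bees, so each p-value rests on a spread among libraries that may be technical. The 3 mouthparts libraries grouped as olea have conflicting labels, the title of each giving pear pollen and its genotype entry Olea europaea, and every olea result in mouthparts rests on the genotype entry. Library totals ranged from 25.9 to 41.4 M counts (M, 1000000). The 144 genes with an odorant receptor domain took 0.245 to 0.295% of counts in tentacles and 0.00577 to 0.00895% in mouthparts. In bulk tissue, fewer cells of a type and less RNA per cell cannot be told apart.

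Fatty acids are built from acetyl-CoA. Acetyl-CoA carboxylase makes malonyl-CoA, and fatty acid synthase uses it to build a saturated chain. Elongases, in the membrane of the endoplasmic reticulum, catalyse the first step of a cycle that lengthens the chain. Desaturases put in double bonds, and acyl-CoA reductases turn acyl-CoA into fatty alcohols. In insects the very long chains go on to cuticular hydrocarbons, which waterproof the body and serve as recognition cues, and a cytochrome P450 of the 4G group makes the hydrocarbon in the last step. Honey bees also make wax and glandular fatty acids through parts of the same machinery.

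The annotation of some members limits what they can be called. Of the 4 genes with a fatty acid synthase hit, GB53412 and GB52590 had the acyl transferase domain of that enzyme. GB53411 and GB54189 instead had an AAA ATPase domain and a hit named IQ and AAA domain-containing protein 1, so their annotation goes against the fatty acid synthase label. GB51760 has a desaturase domain, and its KEGG hits name a sphingolipid desaturase and a cytochrome b5-related protein. Of the 40 members 35 had a honey bee KEGG hit, and these pointed to 29 RefSeq genes. Members that share a hit are GB54400 with GB54401, GB51249 with GB51250, GB49335 with GB49336, GB42218 with GB42219, and the reductases GB49327, GB49328 and GB52138. Such members may be pieces of 1 gene or close copies, and the authors' counting could have split reads between them.

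Many members are neighbours in the order of genes in the RefSeq table (assembly Amel_HAv3.1). With at most 2 other protein genes allowed between them, 4 runs held 20 members that hit 16 RefSeq genes. The longest run held the elongases GB51247, GB51249, GB51250, GB54302, GB54396, GB54399, GB54400, GB54401 and GB54404. Another held the reductases GB49326, GB49327, GB49328, GB49380 and GB52138, and a further run the desaturases GB48195, GB51236 and GB51238.

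Levels are given as counts per 1000000 of the library total (CPM). Differences were tested with edgeR's quasi-likelihood test on counts, are given as log2 fold changes with their standard errors, and were called at an adjusted p under 0.05 over all genes tested. In tentacles 34 members passed the filter on low counts, in mouthparts 33, and over all 18 libraries 35. A member that is low in all groups drops out at this filter, so the counts below cover the tested members only. The elongases GB53872, GB53873, GB54397 and GB54399 and the desaturase GB42219 were tested nowhere, with 16 to 72 counts each over all 18 libraries.

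In tentacles, 10 of the 34 tested members were higher in pear than in control, 5 were lower and 19 did not pass. Over all genes tested 29.5% were called in this comparison, 14.9% higher and 14.6% lower. In olea against control 9 members were higher, 3 lower and 22 did not pass, against 27.9% of all genes called, 14.4% higher and 13.5% lower. The median log2 fold change of the tested members was 0.08 for pear and 0.04 for olea, and that of all genes was -0.007 and -0.003. Both comparisons use the same 3 control libraries. Of the members called, 9 were higher in both, 3 were lower in both and 0 moved in opposite directions. This agreement was not counted over all genes.

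In mouthparts, 11 of the 33 tested members were higher in pear than in control, 11 were lower and 11 did not pass, and 33.8% of all genes were called, 16.5% higher and 17.3% lower. In olea against control 7 were higher, 10 lower and 16 did not pass, with 26.8% of all genes called, 12% higher and 14.8% lower. Median log2 fold changes of the members were 0.23 for pear and -0.04 for olea, beside 0.013 and -0.012 over all genes. If the 3 libraries with conflicting labels are read as pear, the members called in pear against control drop from 22 to 12. The share of all genes called under that reading is not given here, so the drop cannot be read as particular to the members. The calls then lost are those of GB53412 (-0.86), GB51247 (-0.48), GB49380 (-0.94), GB52308 (-0.56), GB53516 (0.08), GB49326 (0.07), GB54302 (0.65), GB54400 (0.82) and GB54401 (0.79), which kept their sign, and GB51238 (0.00). These 2 comparisons again share their control libraries. GB49323 is among the lower members of both and passed the filter through control alone.

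**Figure D1:**
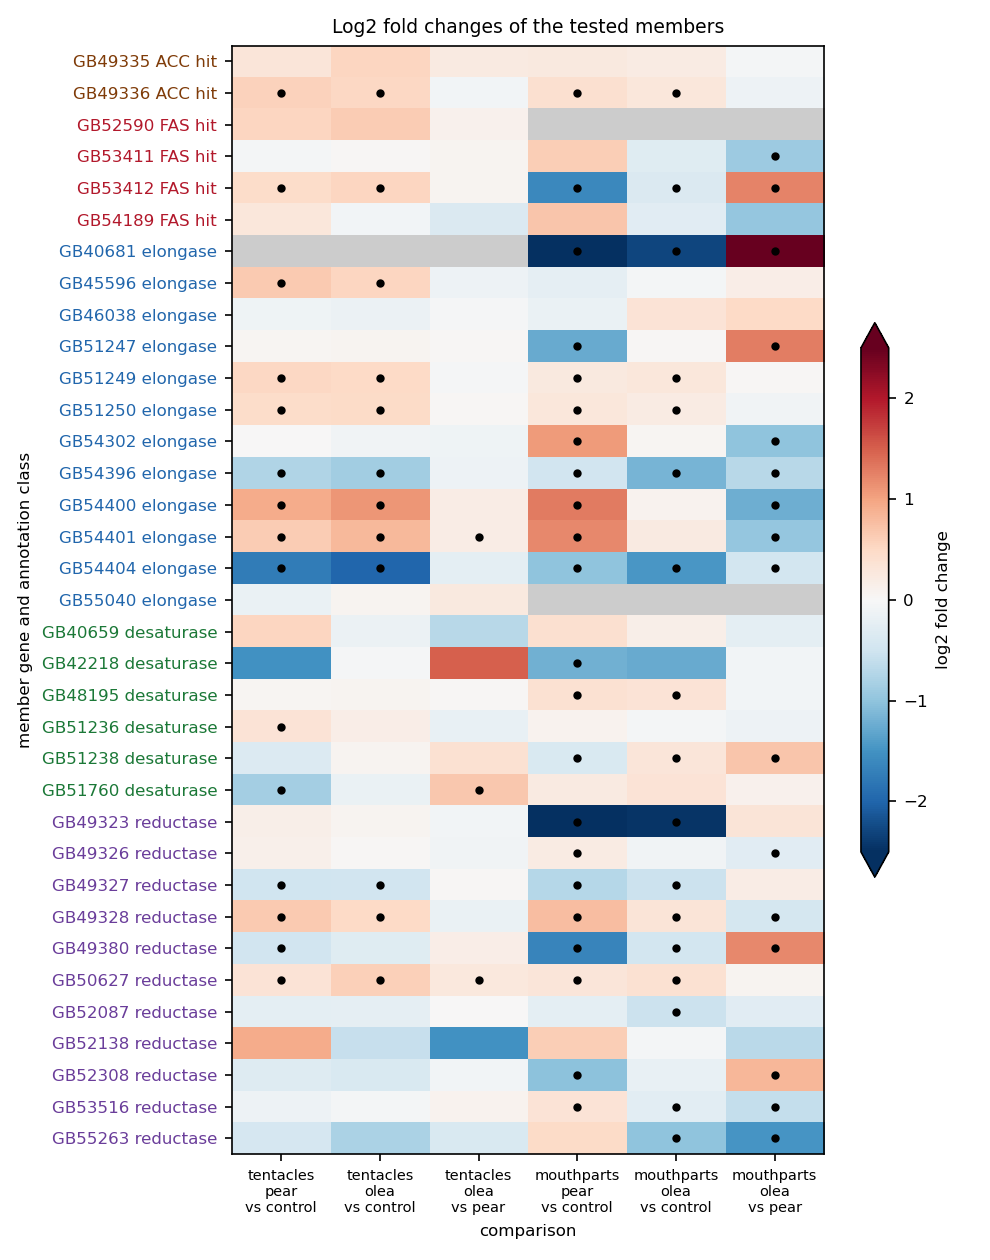
Log2 fold change of each member that was tested in at least 1 tissue (rows, coloured by annotation class; FAS, fatty acid synthase; ACC, acetyl-CoA carboxylase) in the 6 comparisons of pollen groups (columns). Black dots mark members called at an adjusted p under 0.05, grey cells were not tested, and values past the ends of the colour scale take its end colours. GB54404 and GB54396 are blue and GB49336, GB51249 and GB51250 are red with a dot in all 4 comparisons with control.

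Acetyl-CoA carboxylase, which commits acetyl-CoA to fatty acid synthesis, rose with pollen in both tissues. The member with the full-length hit, GB49336, stood at 202, 157 and 204 CPM in the tentacles controls, at 275, 268 and 279 in pear and at 262, 262 and 270 in olea. In mouthparts it stood at 235, 246 and 224 CPM in control, 345, 333 and 347 in pear and 316, 291 and 290 in olea. No pollen library overlapped a control library of its tissue. The log2 fold changes were 0.57 ± 0.08 in pear and 0.51 ± 0.08 in olea tentacles (adjusted p = 0.0002 and 0.000554). They were 0.41 ± 0.06 and 0.28 ± 0.06 in mouthparts (adjusted p = 0.00027 and 0.00418). The second hit to the same RefSeq gene, GB49335, ran at 1.33 to 3.70 CPM and passed in none of the 4.

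Fatty acid synthase moved in opposite directions in the 2 tissues. In tentacles GB53412 stood at 348, 250 and 319 CPM in control, 417, 414 and 411 in pear and 425, 446 and 448 in olea. It rose by 0.46 ± 0.08 in pear and 0.53 ± 0.08 in olea (adjusted p = 0.00171 and 0.000795), and all 6 pollen libraries were above the 3 controls. In mouthparts the controls were at 1301, 1299 and 1306 CPM, pear at 452, 472 and 481 and olea at 1009, 1141 and 1018. Here it fell by 1.61 ± 0.07 in pear, a 3.05-fold drop, and by 0.36 ± 0.07 in olea (adjusted p = 8.99e-09 and 0.0023). The pear effect differed between mouthparts and tentacles by -2.09 ± 0.11 and the olea effect by -0.93 ± 0.11 (adjusted p = 2.95e-10 and 2.89e-05). It was the member with the largest absolute tissue difference in the pear effect after the reductase GB49323. The other synthase with the acyl transferase domain, GB52590, had 0 to 0.883 CPM in every library and passed in neither tentacles comparison.

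The summed shares of the marker lists for fat body and haemolymph and for the hypopharyngeal gland fell beside fatty acid synthase in mouthparts. Not every gene listed did, and other lists did not fall. The muscle list held 3.62 to 3.74% of counts in control, 3.81 to 5.74% in pear and 4.03 to 5.48% in olea mouthparts. The oenocyte marker held 0.0104 to 0.0118, 0.0104 to 0.0108 and 0.00965 to 0.013% in the same order. The 13 genes with a lipoprotein or apolipophorin-III domain, taken as markers of fat body and haemolymph, held 0.849 to 0.885% of counts in control, 0.439 to 0.556% in pear and 0.633 to 0.78% in olea mouthparts. The most abundant, GB54507, is a mucin-5AC hit and had means of 4532, 2754 and 4227 CPM in the same order. The next 2, GB52467 and GB52466, stayed near their control level, at 1068, 1062 and 1108 CPM and at 418, 451 and 429 CPM. Of the 11 genes of this list tested in mouthparts 8 fell and 0 rose in pear, and 5 fell and 0 rose in olea. Over all genes tested in mouthparts 17.3% were lower in pear and 14.8% in olea. In tentacles the share of this list was 0.296 to 0.318% in control, 0.38 to 0.387% in pear and 0.305 to 0.309% in olea. The 28 genes of the royal jelly protein family, taken as markers of the hypopharyngeal gland, held 8.21 to 8.79% of mouthparts counts in control, 0.929 to 1.16% in pear and 1.06 to 1.32% in olea. Of the 26 tested there 18 fell and 2 rose in pear, and 17 fell and 2 rose in olea. The most abundant, GB55205, went from 42310 ± 1800 CPM in control to 4.14 ± 1.53 in pear and 417 ± 357 in olea mouthparts (SD, n = 3). GB45951 went the other way, from 6675 ± 120 CPM to 9484 ± 1190 and 9981 ± 820. In tentacles the 28 genes held 2.03 to 3.04% in control and 0.114 to 0.12% in pear and olea. The part of these tissues in the change of GB53412 was not tested. With the royal jelly family genes left out before scaling, every call of GB53412 named above remained. That step takes out those genes and no other RNA of the gland, so it does not test that part.

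**Figure D2:**
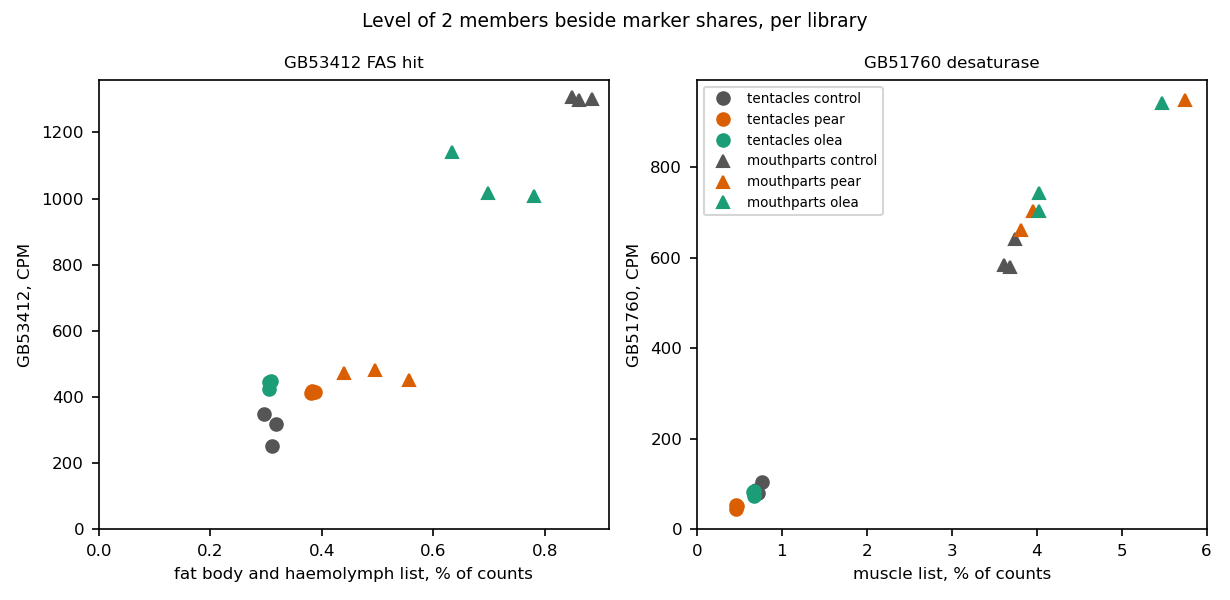
Level of the fatty acid synthase GB53412 against the share of counts of the fat body and haemolymph list (left) and of the desaturase-domain gene GB51760 against the share of the muscle list (right). Each point is 1 library, circles are tentacles, triangles mouthparts, and colour is the pollen group. The 2 mouthparts libraries with the highest muscle shares, 5.74 and 5.48%, have the highest GB51760, at 947 and 941 CPM.

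Elongases changed in both directions. Among the 11 tested in tentacles, 5 rose, 2 fell and 4 did not pass in pear, and the same counts held in olea. That is 63.6% called in each, beside 29.5 and 27.9% of all genes. Among the 11 tested in mouthparts, 5 rose, 4 fell and 2 did not pass in pear, and in olea 2 rose, 3 fell and 6 did not pass. Called were 81.8 and 45.5% of them, beside 33.8 and 26.8% of all genes.

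GB54404 fell in all 4 comparisons with control. Its tentacles controls were at 32.5, 32.4 and 35.9 CPM, pear at 9.70, 10.2 and 9.61 and olea at 8.92, 8.37 and 7.88. In mouthparts the controls were at 106, 104 and 105 CPM, pear at 55.2, 56.6 and 60.3 and olea at 46.1, 35.4 and 38.0. The control and pollen libraries did not overlap in either tissue. The fall was 1.74 ± 0.09 and 1.99 ± 0.09 in tentacles and 1.01 ± 0.08 and 1.46 ± 0.09 in mouthparts on the log2 scale, pear first. All adjusted p were at or below 3.01e-06. Relative to control it fell less in mouthparts, by 0.72 ± 0.12 for pear and 0.50 ± 0.12 for olea (adjusted p = 0.000368 and 0.00844).

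GB54396, in the same run of neighbours, also fell in all 4, at a lower level. Its group means were 4.77 ± 0.0769, 2.78 ± 0.205 and 2.58 ± 0.543 CPM in tentacles (control, pear, olea; SD, n = 3) and 11.9 ± 0.686, 9.39 ± 1.04 and 5.57 ± 0.846 CPM in mouthparts. The fold changes were -0.76 ± 0.16 and -0.87 ± 0.16 in tentacles and -0.47 ± 0.13 and -1.16 ± 0.14 in mouthparts (adjusted p = 0.0034, 0.00163, 0.0144 and 0.000106). The pear call in mouthparts was lost without control replicate 1, control replicate 3 or pear replicate 3, at -0.47, -0.45 and -0.39, and on FPKM with a pseudocount of 0.1, at -0.35.

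GB54400 and GB54401, which hit 1 RefSeq gene, rose in 3 of the 4 comparisons. GB54401 was at 167, 152 and 152 CPM in tentacles control, 232, 236 and 247 in pear and 269, 271 and 279 in olea. In mouthparts it was at 120, 111 and 105 CPM in control, 267, 289 and 288 in pear and 152, 115 and 144 in olea. Pear mouthparts stood well above both other groups, while 1 of the 3 olea libraries fell within the control range. The log2 fold changes of GB54401 were 0.63 ± 0.04 and 0.81 ± 0.04 in tentacles and 1.20 ± 0.10 in pear mouthparts (adjusted p = 1.07e-06, 1.77e-07 and 3.3e-06). In olea mouthparts the value was 0.23 ± 0.10 (adjusted p = 0.1), and it passed without olea replicate 2 (0.35, adjusted p = 0.0055) and with library totals (0.29, adjusted p = 0.036). GB54400 gave 0.92 ± 0.10, 1.11 ± 0.10, 1.30 ± 0.16 and 0.08 ± 0.16 in the same order, the last not passed. The tissue difference in the olea effect was -0.61 ± 0.11 for GB54401 and -1.05 ± 0.20 for GB54400, and both passed.

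GB51249 and GB51250, the other pair with a shared hit, rose in all 4 comparisons by smaller amounts. GB51250 was at 64.8 to 77.7 CPM in tentacles control, 93.0 to 97.8 in pear and 94.3 to 101 in olea, and at 126 to 140, 177 to 184 and 155 to 177 CPM in mouthparts. Its rises were 0.46 ± 0.06 and 0.47 ± 0.06 in tentacles and 0.29 ± 0.07 and 0.21 ± 0.07 in mouthparts. Those of GB51249 were 0.52 ± 0.07, 0.49 ± 0.07, 0.25 ± 0.07 and 0.28 ± 0.07. The olea call of GB51250 in mouthparts was lost without control replicate 1, control replicate 3 or olea replicate 1, where the values were 0.23, 0.18 and 0.15. The pear call of GB51249 in mouthparts was lost without any 1 of the 3 control libraries, at 0.24 each time.

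The pear effect on GB51247 and GB54302 differed between the tissues. GB51247 was at 280, 266 and 224 CPM in mouthparts control, 124, 114 and 115 in pear and 290, 253 and 273 in olea, so that pear lay below and olea overlapped control. It fell by 1.26 ± 0.08 in pear (adjusted p = 4.33e-07), while the olea difference was 0.02 ± 0.08 with a 95% interval from -0.14 to 0.18. In tentacles it ran from 109 to 123 CPM over all 9 libraries. GB54302 went the other way, from 8.80, 8.95 and 8.97 CPM in mouthparts control to 21.0, 19.0 and 21.1 in pear and 11.5, 8.83 and 8.51 in olea. It rose by 1.06 ± 0.11 in pear (adjusted p = 2.15e-05) and ran from 30.1 to 35.7 CPM in tentacles. The tissue difference in the pear effect was -1.32 ± 0.10 for GB51247 and 1.03 ± 0.12 for GB54302 (adjusted p = 5.86e-08 and 1.13e-05).

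**Figure D3:**
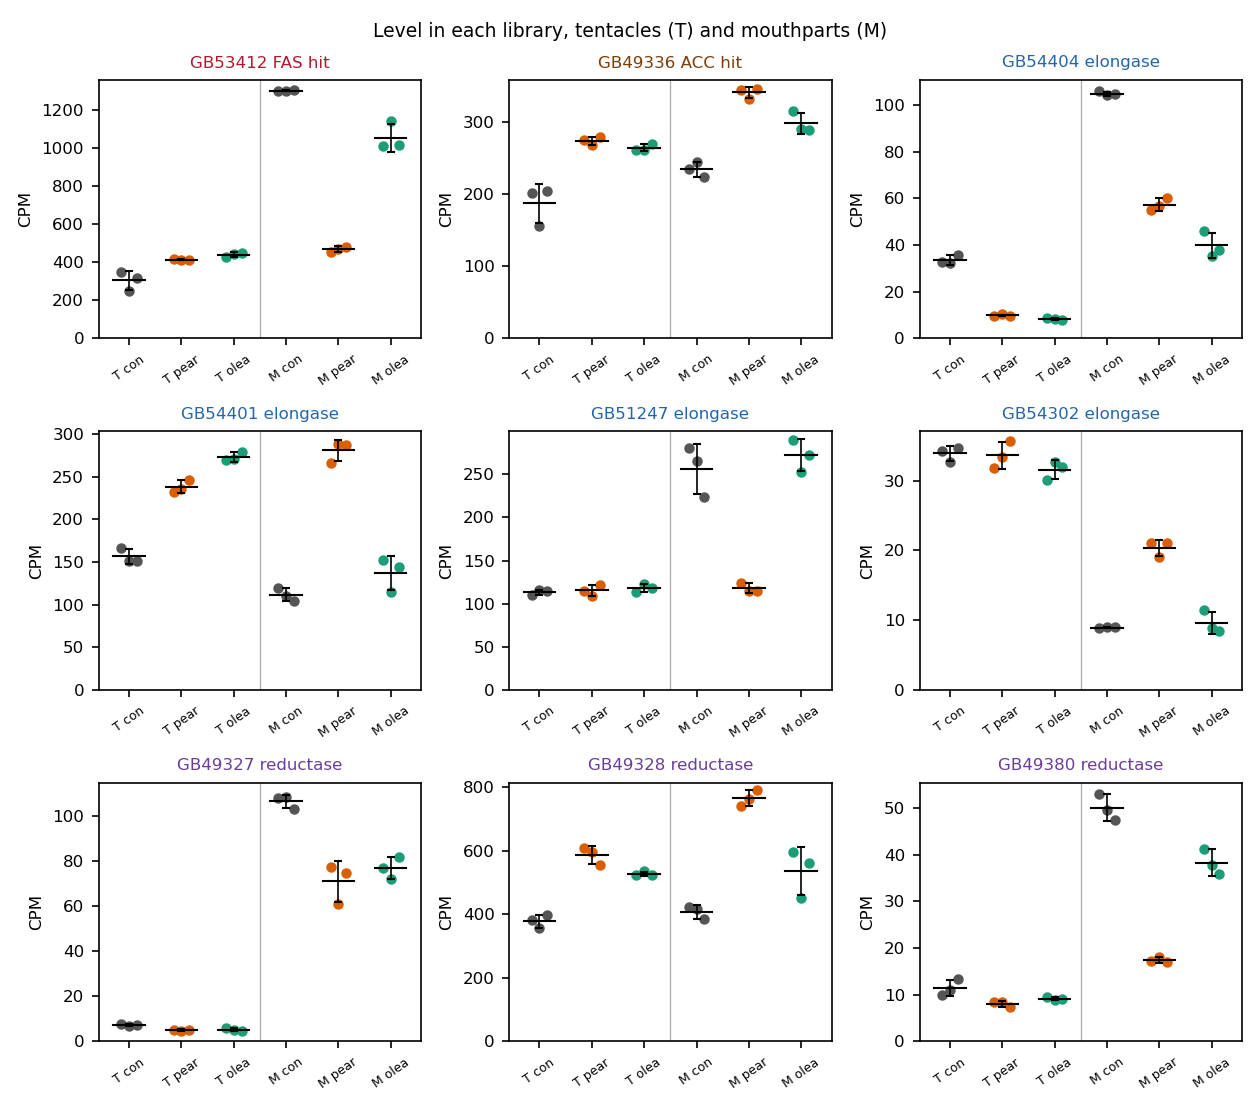
Level in CPM of 9 members in each of the 18 libraries; points are libraries, bars the group mean and SD (n = 3), T tentacles, M mouthparts, con control. GB53412, GB51247 and GB49380 are lower and GB54401 and GB54302 higher in pear than in control and olea mouthparts, and GB49327 and GB49328 move in opposite directions in both tissues.

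GB40681, a hit to elongation of very long chain fatty acids protein 1, was detected mainly in control mouthparts. Its raw counts there were 163, 175 and 184, against 3, 6 and 0 in pear and 20, 48 and 34 in olea mouthparts. The fitted log2 changes were -6.35 ± 0.47 in pear and -2.30 ± 0.34 in olea (adjusted p = 3.34e-06 and 0.000743), and a fold from so few pear counts depends on the prior count of the fit. In tentacles it had 19 counts over the 3 control libraries, 0 over pear and 2 over olea, and was not tested. GB45596, a hit to elongation protein 6, rose in tentacles from 23.3, 14.4 and 20.5 CPM in control to 29.6 to 30.4 in pear and 26.1 to 29.7 in olea (0.66 ± 0.13 and 0.54 ± 0.13). In mouthparts it ran from 32.1 to 45.5 CPM and passed in neither. GB46038, a hit to elongation protein 4, passed in no pollen comparison.

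The acyl-CoA reductases divided within 1 run of neighbours. GB49328 and GB49327 share a RefSeq hit and moved in opposite directions in both tissues. GB49328 was at 380, 355 and 397 CPM in tentacles control, 608, 594 and 555 in pear and 522, 535 and 522 in olea, and at 421, 417 and 383, then 741, 762 and 791, then 596, 450 and 561 CPM in mouthparts. Every pollen library exceeded the controls of its tissue. The rises were 0.66 ± 0.05, 0.49 ± 0.05, 0.78 ± 0.09 and 0.33 ± 0.09 in pear and olea tentacles and pear and olea mouthparts. The olea call in mouthparts (adjusted p = 0.0193) was lost without control replicate 3, olea replicate 1 or olea replicate 3, at 0.30, 0.25 and 0.30.

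GB49327 was at 7.77, 6.63 and 7.30 CPM in tentacles control, 5.20, 4.62 and 5.18 in pear and 5.88, 4.83 and 4.73 in olea. In mouthparts it was at 108, 108 and 103 CPM in control, 77.1, 60.7 and 74.8 in pear and 76.9, 71.8 and 81.8 in olea. Every pollen library was below the controls of its tissue. The falls were 0.50 ± 0.12 and 0.48 ± 0.12 in tentacles and 0.72 ± 0.07 and 0.53 ± 0.07 in mouthparts (adjusted p = 0.00727, 0.0104, 1.79e-05 and 0.000373). The third member with this hit, GB52138, had 3 to 105 counts per library with no order by group.

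GB49380, which hits the honey bee gene FAR1, fell most in pear mouthparts. Its mouthparts values were 53.1, 49.7 and 47.4 CPM in control, 17.21, 18.03 and 17.02 in pear and 41.3, 37.8 and 35.8 in olea, with no overlap between groups. It fell by 1.66 ± 0.08 and 0.45 ± 0.08 (adjusted p = 2.46e-08 and 0.0014). In tentacles it went from 9.82, 11.1 and 13.3 CPM to 8.45, 8.32 and 7.32 in pear, a fall of 0.48 ± 0.12 that was lost without pear replicate 3 (-0.42, adjusted p = 0.0568). The pear effect differed between tissues by -1.19 ± 0.15 (adjusted p = 1.7e-05).

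The reductase GB50627 rose in all 4 comparisons. It went from 552, 444 and 527 CPM in tentacles control to 605 to 650 in pear and 748 to 773 in olea, and from 743 to 812 CPM in mouthparts control to 1012 to 1147 and 971 to 1159. The rises were 0.34 ± 0.06, 0.60 ± 0.06, 0.31 ± 0.08 and 0.38 ± 0.08. GB52308 fell in pear mouthparts, from 7.41, 7.87 and 7.46 to 4.14, 3.80 and 4.38 CPM (-1.02 ± 0.12, adjusted p = 6.18e-05), and stood at 6.38 to 8.05 CPM in olea. GB53516 was higher in pear (0.35 ± 0.08) and lower in olea mouthparts (-0.26 ± 0.08) than in control, at 69.9 to 73.2 CPM in control, 97.9 to 105 in pear and 57.2 to 69.5 in olea. The olea call was lost without any 1 of the 3 control libraries, olea replicate 2 or olea replicate 3 (-0.18 to -0.27), and with library totals (-0.19) or either FPKM pseudocount (-0.22 and -0.23).

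GB49323 was a reductase of tentacles. It ran from 140 to 161 CPM in the 9 tentacles libraries and passed in neither comparison there. In mouthparts it was at 1.13, 1.24 and 1.26 CPM in control, 0.124 to 0.244 in pear and 0.0745 to 0.309 in olea, with fitted log2 changes of -2.78 ± 0.39 and -2.46 ± 0.40 (adjusted p = 0.000203 and 0.000991). These rest on 33, 36 and 35 counts in control, 5, 8 and 9 in pear and 8, 2 and 8 in olea. GB49323 passed the filter in mouthparts through control alone, since all 6 pollen libraries lay under its limit of 0.345 CPM, so there it could be called only as lower. The odorant receptor list had its higher mouthparts shares in control too, at 0.0077 to 0.00895%, against 0.00632 to 0.0074% in pear and 0.00577 to 0.00631% in olea, and its part in the difference was not tested. GB55263 and GB52087 fell in olea mouthparts by 1.0 ± 0.27 and 0.53 ± 0.16 from 1.66 to 1.84 and 3.04 to 3.32 CPM in control. The call of GB55263 was lost without control replicate 1, olea replicate 1 or olea replicate 2 (-0.97, -0.84 and -0.81). That of GB52087 was lost without any 1 of the 3 control libraries, olea replicate 2 or olea replicate 3 (-0.44 to -0.56), and also with DESeq2 (-0.52), with library totals (-0.47) and with limma on FPKM with a pseudocount of 1 (-0.29) or 0.1 (-0.47). GB49326 rose in pear mouthparts by 0.21 ± 0.06 (adjusted p = 0.0146), a call lost without control replicate 2, control replicate 3 or pear replicate 3 (0.18 to 0.19).

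Of the 6 desaturases tested in tentacles 1 rose and 1 fell in pear, which is 33.3% called beside 29.5% of all genes, and 0 passed in olea. Of the 6 tested in mouthparts 1 rose and 2 fell in pear (50% beside 33.8% of all genes), and 2 rose and 0 fell in olea (33.3% beside 26.8%). GB48195 was at 689.5, 712 and 665 CPM in mouthparts control, 993, 929.5 and 1061 in pear and 988, 815 and 921 in olea, with all pollen libraries above the controls. It rose by 0.39 ± 0.08 and 0.34 ± 0.08 (adjusted p = 0.0019 and 0.00688). In tentacles its differences were 0.04 ± 0.06 and 0.07 ± 0.06, and they changed sign without control replicate 2, at -0.04 and -0.01. That library was the lowest of its group for 16 of the 21 tested members that averaged at least 10 CPM in tentacles.

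GB51238 fell in pear mouthparts and rose in olea, at 128, 125 and 134 CPM in control, 113, 104 and 109 in pear and 171, 163 and 166 in olea. The changes were -0.38 ± 0.05 and 0.31 ± 0.05 (adjusted p = 0.000151 and 0.00116), and the 3 groups did not overlap. Its neighbour GB51236 rose in pear tentacles by 0.35 ± 0.08, from 185, 146 and 190 CPM to 216, 215 and 221. GB42218 fell in pear mouthparts by 1.20 ± 0.42 on 94 to 146 counts per group (adjusted p = 0.0456). That call was lost without control replicate 1 or 3 or any 1 of the 3 pear libraries (-0.80 to -1.41). It was also lost with no filter (-1.19), library totals (-1.06), FPKM with a pseudocount of 1 (-0.40) or 0.1 (-0.79) and when only the 6 libraries were fitted (-1.21).

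GB51760, the desaturase-domain gene with the cytochrome b5-related hit, moved beside the muscle list. It was at 85.3, 105 and 79.6 CPM in tentacles control, 52.8, 43.7 and 51.9 in pear and 81.5, 74.0 and 83.5 in olea. Pear was below both other groups, which overlapped each other. It fell by 0.84 ± 0.11 in pear and was 0.67 ± 0.11 higher in olea than in pear (adjusted p = 0.000202 and 0.00685). The 23 muscle genes held 0.697 to 0.765% of counts in tentacles control, 0.462 to 0.475% in pear and 0.667 to 0.672% in olea. Of the 22 tested 19 fell and 1 rose in pear against control, and 16 were higher and 1 lower in olea against pear. Over all genes tested 14.6% were lower in the former comparison and 1.91% higher in the latter. In olea against control 8 of the 22 muscle genes fell and 1 rose (40.9% called, beside 27.9% of all genes), while GB51760 did not pass. In mouthparts GB51760 passed in neither comparison, at 579 to 642 CPM in control, and pear replicate 2 and olea replicate 2 had the highest muscle shares and the highest GB51760 of their groups. The part of muscle in the tentacles result was not tested.

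Set against each other, olea and pear gave different answers in the 2 tissues. In tentacles 3 of 34 members were higher in olea, 0 were lower and 31 did not pass, and 2.6% of all genes were called, 1.91% higher and 0.695% lower. These were GB51760, GB50627 (0.26 ± 0.06) and GB54401 (0.18 ± 0.04). The calls of GB50627 and GB54401 were lost without any 1 of the 6 pollen libraries, with values of 0.23 to 0.28 and 0.16 to 0.20. Both were also lost with no filter, library totals, either FPKM pseudocount, the replicate block or the royal jelly family genes left out (adjusted p = 0.0522 to 0.147 and 0.0521 to 0.122). In mouthparts 6 of 33 were higher in olea, 10 lower and 17 did not pass, and 30.9% of all genes were called, 14.9% higher and 15.9% lower. Higher in olea were the elongase GB51247 (1.28 ± 0.08), fatty acid synthase GB53412 (1.24 ± 0.07), the reductases GB49380 (1.21 ± 0.08) and GB52308 (0.83 ± 0.12), the desaturase GB51238 (0.69 ± 0.05) and the elongase GB40681. Lower were the elongases GB54400 (-1.22 ± 0.16), GB54302 (-1.01 ± 0.11), GB54401 (-0.97 ± 0.10), GB54396 (-0.69 ± 0.14) and GB54404 (-0.45 ± 0.09). The reductases GB55263 (-1.48 ± 0.26), GB53516 (-0.60 ± 0.08), GB49328 (-0.44 ± 0.09) and GB49326 (-0.29 ± 0.06) were lower too. The tenth was GB53411, one of the genes with the AAA ATPase domain (-0.91 ± 0.25), whose call was lost without olea replicate 3 (-0.69, adjusted p = 0.0636).

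The pear effect itself differed between the tissues for 12 of the 35 members tested over all libraries, 6 towards higher and 6 towards lower in mouthparts, where 12.8% of all genes were called, 5.46% and 7.31%. The olea effect differed for 7, 1 towards higher and 6 towards lower, where 15.4% of all genes were called, 4.93% and 10.5%. In pear, 7 members rose in both tissues, 4 fell in both, and GB53412 alone was called in opposite directions. In olea 5 rose in both, 3 fell in both, and again GB53412 alone was called in opposite directions. Agreement between the tissues was not counted over all genes, so whether the members differ from other genes in this is not known.

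**Figure D4:**
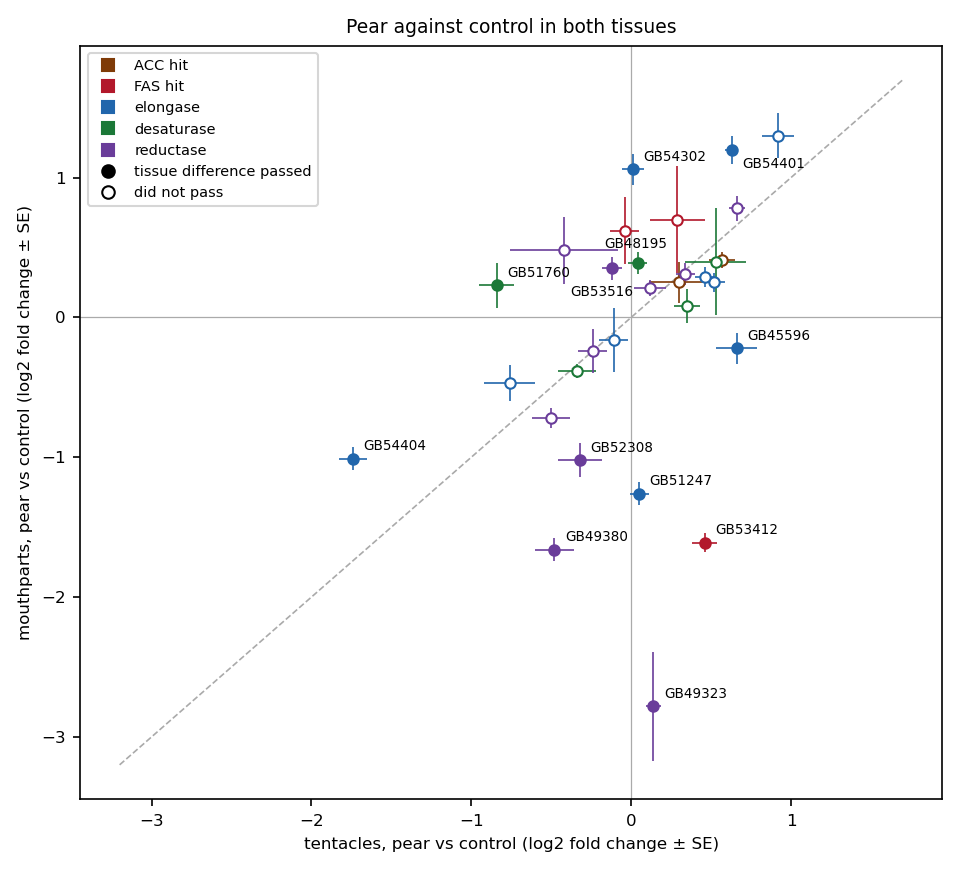
Log2 fold change of pear against control in tentacles (x axis) and mouthparts (y axis), with standard errors, for the 30 of 32 members tested in both tissues whose standard errors were under 0.5. Filled, named points are the 12 members whose pear effect differed between tissues, and the dashed line marks equal effects. GB53412 is the filled point with a rise in tentacles and a fall in mouthparts that both passed.

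Most members differed between the tissues themselves. Over the 3 groups weighed equally, 21 of 35 members were higher in mouthparts, 13 were higher in tentacles and 1 did not pass, where 82.5% of all genes were called, 39.2% higher in mouthparts and 43.3% higher in tentacles. The median log2 difference was 0.68 for the members and -0.045 for all genes. Members higher in mouthparts included the desaturase GB51238 (4.38 ± 0.05), the reductase GB49327 (4.15 ± 0.05), GB51760 (3.63 ± 0.10), the elongase GB54404 (2.43 ± 0.05) and the reductase GB49380 (2.06 ± 0.06). Members higher in tentacles included GB49323 (-8.33 ± 0.07), the AAA ATPase gene GB53411 (-5.91 ± 0.09), the desaturase GB51236 (-4.33 ± 0.06), the reductase GB52087 (-3.22 ± 0.07) and the elongase GB46038 (-2.66 ± 0.09). The neighbouring desaturases GB51236 and GB51238 had opposite tissue patterns, at 94.6 to 142 against 3.17 to 5.13 FPKM in tentacles and 4.32 to 6.20 against 56.8 to 92.6 FPKM in mouthparts (the authors' values per length). The calls of GB54401 (-0.13 ± 0.05) and GB54400 (-0.22 ± 0.08) were lost without mouthparts pear replicate 3, at -0.09 and -0.18. That of the rarely counted GB52590 (-0.74 ± 0.31) was lost without any 1 of 6 libraries, which were tentacles control replicate 3, pear replicate 1 and olea replicate 3 and mouthparts control replicate 3 and pear replicates 1 and 2 (-0.58 to -0.73), and on FPKM with a pseudocount of 1 (-0.05).

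**Figure D5:**
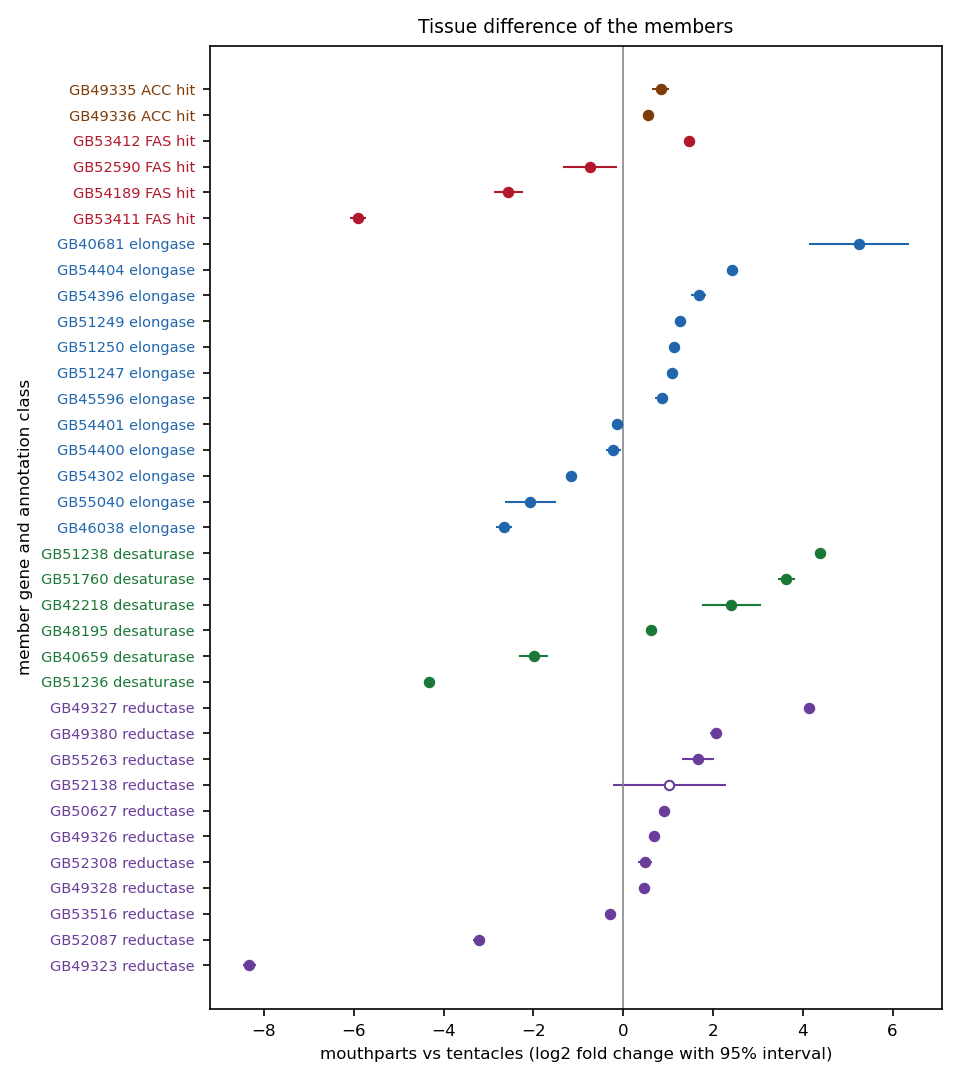
Log2 fold change of mouthparts against tentacles with its 95% interval for the 35 members tested over all 18 libraries, ordered within annotation class. Filled points passed, and the open point, GB52138, did not. GB51238 and GB51236 lie at 4.38 and -4.33 on either side of 0, and GB49323 is farthest to the left at -8.33.

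Per length, on the authors' FPKM scale, the leading members of the tissues overlapped. In tentacles the highest means over 9 libraries were those of the reductase GB49328 (243, range 174 to 301 FPKM), the elongase GB54400 (212, range 102 to 276), the reductase GB50627 (193, range 136 to 237) and the desaturase GB48195 (168, range 145 to 179). In mouthparts they were GB50627 (297, range 226 to 353 FPKM), GB51760 (293, range 234 to 388), GB49328 (279, range 187 to 388) and the elongase GB51250 (226, range 178 to 262). Neighbours in each order overlapped in range. These means pool groups that differ. In tentacles GB54400 ranked 4 in control (128 ± 22.7 FPKM, SD, n = 3) and 1 in olea (272 ± 7.18). In mouthparts fatty acid synthase GB53412 ranked 6 in control (140 ± 1.0), 11 in pear (50.2 ± 1.73) and 7 in olea (111 ± 6.26).

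Summed over the 16 elongases, tentacles held 502 to 559 CPM in control, 680 to 698 in pear and 733 to 741 in olea. In mouthparts the sums were 718 to 814, 873 to 911 and 711 to 871 CPM, where olea overlapped control. The 11 reductases summed to 1207 to 1361 CPM in tentacles control, 1561 to 1672 in pear and 1688 to 1718 in olea, and to 1483 to 1604, 2111 to 2300 and 1709 to 2078 CPM in mouthparts. These sums follow their members with the highest CPM and hide the members that fell.

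Genes around the pathway, found by their annotation, were counted the same way. Beside their shares, 29.5 and 27.9% of all genes were called in pear and olea tentacles and 33.8 and 26.8% in pear and olea mouthparts. The list for other steps of the elongation cycle held 8 genes by their KEGG entry. GB48364 and GB54490 among them have hits named inactive hydroxysteroid dehydrogenase-like protein 1, so they may not carry out a step. Of the 8, 5 fell and 1 rose in pear mouthparts (75% called), and 2 fell and 0 rose in olea mouthparts (25.0%). GB42351, a very-long-chain 3-oxoacyl-CoA reductase that carries out the step after the elongase, fell by 2.55 ± 0.11 there, from 53.7 ± 6.23 to 10.1 ± 0.744 CPM (SD, n = 3), and by 0.68 ± 0.10 in olea. GB46772, a very-long-chain enoyl-CoA reductase that ends each round of the cycle, fell in pear mouthparts by 0.78 ± 0.05. In tentacles 1 of 7 rose and 1 fell in pear (28.6%), 0 rose and 1 fell in olea (14.3%), and the pear effect on GB42351 differed between tissues by -2.79 ± 0.14.

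Of 11 genes that activate or carry fatty acids, 6 fell and 1 rose in pear mouthparts (63.6% called), and 2 fell and 0 rose in olea mouthparts (18.2%). In tentacles 2 rose and 1 fell in pear and again in olea (27.3% each), near the share of all genes. The fatty acid-binding protein gene Fabp (GB40713) fell in mouthparts by 1.23 ± 0.12 in pear and 0.77 ± 0.12 in olea. Of 7 genes that supply carbon or NADPH, 3 fell and 0 rose in pear mouthparts (42.9%) and 1 fell in olea mouthparts (14.3%). In tentacles 2 of them rose and 1 fell in pear (42.9%), and 1 rose and 1 fell in olea (28.6%). Malic enzyme GB55096 fell by 0.24 ± 0.06 in pear mouthparts.

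Among 7 genes that control lipid synthesis, 1 rose and 0 fell in each mouthparts comparison with control (14.3%), and 2 rose and 1 fell in each tentacles comparison with control (42.9%). All but GB54953 are hits to subunits of AMP-activated protein kinase. GB45453, GB45454 and GB45456 among them share a hit name, so these counts do not cover separate regulators. GB54953, a hit to sterol regulatory element-binding protein 1, a transcription factor that in mammals drives lipid synthesis genes, rose in all 4. It went from 432 ± 7.45 to 525 ± 5.65 and 503 ± 11.2 CPM in tentacles and from 385 ± 7.66 to 537 ± 11.6 and 552 ± 9.99 CPM in mouthparts. The log2 changes were 0.30 ± 0.04, 0.23 ± 0.04, 0.35 ± 0.05 and 0.46 ± 0.05. Cyp4g11 (GB51356), the P450 of the hydrocarbon step and an oenocyte marker, fell in tentacles from 108 ± 9.33 to 73.2 ± 2.10 and 72.8 ± 2.18 CPM (-0.54 ± 0.07 and -0.56 ± 0.07). In mouthparts it did not pass, at 111 ± 6.91, 106 ± 2.18 and 115 ± 17.1 CPM. The tissue difference in the olea effect was 0.52 ± 0.13 (adjusted p = 0.00881), and that in the pear effect, 0.31, did not pass.

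Of 18 genes of fatty acid breakdown, 4 fell and 0 rose in pear tentacles (22.2%), 6 fell and 0 rose in olea tentacles (33.3%), 5 fell and 1 rose in pear mouthparts (33.3%), and 5 fell and 0 rose in olea mouthparts (27.8%). These shares are near those of all genes called in either direction. Nearly all of these calls were falls, however, and 14.6, 13.5, 17.3 and 14.8% of all genes were lower in the same order. The list includes GB42965, whose KEGG entry is acyl-CoA oxidase but whose hit is named as the chemosensory receptor IR68a. The mitochondrial thiolase GB50970 fell in mouthparts by 1.24 ± 0.06 in pear and 0.83 ± 0.06 in olea. Of 11 genes of lipid transport and storage, 2 rose and 2 fell in pear tentacles (36.4%), 1 rose and 2 fell in olea tentacles (27.3%), 3 rose and 2 fell in pear mouthparts (45.5%), and 3 rose and 1 fell in olea mouthparts (36.4%). Among the perilipin-2 hits, by annotation genes of the lipid droplet coat, GB47140 and GB47142 fell in pear tentacles by 0.65 ± 0.14 and 0.48 ± 0.05. Both are also named as an uncharacterized protein. The perilipin-2 hits GB47141 and GB47143, named lipid storage droplets surface-binding protein 2, were not called lower there. The 3 desaturase hits without the Pfam domain, which are not members, gave 0 risen and 1 fallen in pear tentacles, 0 and 2 in olea tentacles, 1 and 1 in pear mouthparts and 1 and 0 in olea mouthparts.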

How the data were processed

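RNA from 18 libraries was analysed from 1 deposited table of 17545 genes, in which 70 continuation lines were joined to the row above. The authors deposited raw read counts and FPKM values (fragments per kilobase per 1000000 fragments) per gene and library. The tool HISAT2 is named, with no version, in the submitters' processing notes, and for the genome build and counting tool nothing was found in the labels or headers. RNA was harvested with a column kit and libraries made with a SMARTER mRNA kit, per the labels' protocols. No strand setting is given, so reads of overlapping antisense genes cannot be separated.

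Counts were filtered by group with filterByExpr, scaled by TMM and tested with edgeR 4.0.16 (R 4.3.3; quasi-likelihood F test, robust), with Benjamini-Hochberg adjustment over 12950 genes in tentacles, 12285 in mouthparts and 13361 over all libraries. Pollen groups were compared within a tissue, in a fit of its 9 libraries. Tissue differences came from a fit of all 18. The scripts were tested on simulated data. The adjusted p-values in the text come from this test, and ± after a log2 fold change is its standard error. CPM was computed from library totals, and levels of different genes were compared as FPKM, the authors' values per length. Alternatives were DESeq2 1.42.0, limma 3.58.1 on log2(FPKM + 1) and log2(FPKM + 0.1), no filter, library totals in place of TMM, a replicate block, the 6 libraries of a comparison alone, each library left out, the conflicting labels read the other way and, chosen after seeing the data, the royal jelly family genes left out.

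The members and lists were chosen with earlier results of these data known. The members to name were, in each comparison, up to 8 called members per direction by size of change and then the member of each class with the highest CPM, and any member could be named. From each list of other genes, up to 3 called genes by size and the one with the highest CPM could be named. The authors' own fold changes and p columns were not used here. RefSeq gene order was read from assembly Amel_HAv3.1, and all 35 members with a honey bee KEGG hit matched it.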

Additional observations from a re-analysis of the deposited data

Results flagged for a closer look

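Each result here is a member whose pollen effect differed between the tissues by the test of that difference, given as the log2 change in mouthparts minus that in tentacles.

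For pear, fatty acid synthase GB53412 differed by -2.09, with a rise of 0.46 ± 0.08 in tentacles and a fall of 1.61 ± 0.07 in mouthparts. The reductases GB49323, GB49380 and GB52308 differed by -2.94, -1.19 and -0.72, and the elongases GB51247 and GB45596 by -1.32 and -0.89. Towards higher in mouthparts were GB51760 (1.06), the elongases GB54302 (1.03), GB54404 (0.72) and GB54401 (0.55), the reductase GB53516 (0.46) and the desaturase GB48195 (0.34). That of GB48195 lost its call without tentacles control replicate 1 or 3, any 1 of the 3 tentacles pear libraries, mouthparts control replicate 1 or 3, or mouthparts pear replicate 3 (0.30 to 0.34). GB51760 fell in pear tentacles beside the muscle list, whose share there was 0.462 to 0.475% against 0.697 to 0.765% in control, and the part of muscle was not tested.

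For olea, GB49323 differed by -2.56, GB54400 by -1.05, GB53412 by -0.93, GB45596 by -0.62, GB54401 by -0.61 and GB51250 by -0.29, and GB54404 by 0.50. The calls of GB45596 and GB51250 were lost without tentacles control replicate 2, tentacles olea replicate 1 or 2, mouthparts control replicate 1 or 2, or mouthparts olea replicate 2 or 3, with values of -0.45 to -0.61 and -0.23 to -0.28. Both were also lost with library totals (-0.51 and -0.19) and with FPKM at a pseudocount of 1 (-0.53 and -0.21) or 0.1 (-0.57 and -0.22), and that of GB51250 with DESeq2 (-0.25). Both values of GB49323 rest on 2 to 9 counts per pollen library in mouthparts. All olea values in mouthparts rest on the libraries with conflicting labels.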

How the results depend on the processing

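Over 152 member results and 2644 alternative values, 2502 kept direction and side of the threshold, 119 lost their call, 11 gained one and 12 changed sign. The number of members called in tentacles olea against pear was 3 in the report. It was 1 with no filter, with library totals, with either FPKM pseudocount, with the replicate block and without the royal jelly family genes, and 8 when only the 6 libraries were fitted. Leaving out 1 library gave 1 to 2. The shares of all genes called under the alternatives are not given here. The member counts under them therefore have no background beside them. In mouthparts pear against control the 22 members called became 12 when the libraries with conflicting labels were read as pear, a pear group that then holds 6 libraries. Leaving out 1 library gave 15 to 18 members in tentacles pear against control, 12 to 15 in olea against control, 19 to 21, 13 to 16 and 15 to 19 in mouthparts pear against control, olea against control and olea against pear, 32 to 34 between tissues, and 11 to 13 and 5 to 10 for the tissue differences in the pear and olea effects.

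The values that changed sign were those of 3 genes. With 1 library left out, GB48195 ranged from -0.04 to 0.09 (pear) and -0.01 to 0.12 (olea) in tentacles, changing sign without control replicate 2, and from -0.13 to 0.03 in mouthparts olea against pear, changing sign without olea replicate 2. GB50627 in mouthparts olea against pear went to -0.01 with library totals, -0.03 with each FPKM pseudocount and ranged from -0.00 (without olea replicate 1) to 0.15 with 1 library left out. Its tissue difference in the pear effect went to 0.14 with library totals and 0.11 with each FPKM pseudocount, and ranged from -0.08 to 0.04 (without tentacles control replicate 2) with 1 library left out. None of these was called. GB51238 in mouthparts pear against control went from -0.38 to 0.00 with the conflicting libraries read as pear. That reading joins libraries at 104 to 113 CPM with libraries at 163 to 171 CPM, and control was at 125 to 134 CPM. The cause of the other sign changes was not tested.

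Same-numbered libraries from different groups showed little common deviation. Over 45 such pairs the correlation of deviations was -0.069 to 0.101 (median -0.003), and the median was 0.001 for other pairs. With 3 libraries per group this cannot show whether libraries of the tissues came from the same bees, and the labels do not say. With the replicate block 15, 12 and 1 members were called in tentacles (pear, olea, olea against pear), 22, 18 and 16 in mouthparts, 34 between tissues and 12 and 7 for the tissue differences. Members with few counts, such as GB40681, GB42218 and GB52138, are limited by depth.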

Other observations

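Within groups, 1 library was often at the edge for many members at once. Tentacles control replicate 2 was the lowest of its 3 for 20 of 34 tested members. Mouthparts olea replicate 1 was the highest for 23 of 33 and replicate 2 the lowest for 22 of 33. Replicate 2 of pear and of olea mouthparts had muscle shares of 5.74 and 5.48% of counts, against 3.62 to 4.03% in the other 7 mouthparts libraries.

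GB53411 and GB54189, the genes with a fatty acid synthase hit and an AAA ATPase domain, were both higher in tentacles, with log2 fold changes of mouthparts against tentacles of -5.91 ± 0.09 and -2.56 ± 0.16. GB53411 was at 103 to 148 CPM in tentacles and 0.851 to 2.73 CPM in mouthparts. Neither passed in a comparison of pollen with control.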
